A study of Mus musculus with 4 samples.

Results

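The chemokines Ccl3, Ccl4 and Ccl5 and the receptors Ccr1 and Ccr2 are 5 of the 32285 genes counted in single CD45+ cells of the healthy mouse liver. They were chosen by their measured levels across these cell types and libraries, so their levels per cell type are given as a description, without a test. The cells came from PA-GFP mice on the C57BL/6 background, which carry a fluorescent protein that light can switch on. Photoactivation was applied in all samples, so every cell comes from a light-treated liver. There were 2 libraries of the portal vein zone (PV) and 2 of the central vein zone (CV). The sources used here give no age, sex or number of mice and no promoter of the transgene. Nor do they say whether the 2 libraries of a zone came from separate mice, so each p-value reflects only how far the libraries lie apart, and that may be technical spread.

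Counts are unique molecular identifiers (UMIs), each standing for 1 captured mRNA molecule near its 3′ end. A level is given in CPM, the UMIs of a gene per 1000000 UMIs of all genes in the same cells. After filtering, 1593 cells were kept, 333 from PV replicate 1, 512 from PV replicate 2, 372 from CV replicate 1 and 376 from CV replicate 2, with medians of 5369 to 6318 UMIs per cell. The libraries shared cell barcodes, 282 of 1939, and a shared barcode was kept only where a single library had 70% or more of its UMIs. A UMI of at least 1 of the 5 genes was found in 1221 cells. Cells were put into classes by fixed lists of marker genes that hold no chemokine and no chemokine receptor, which classed 1509 cells. Ptprc, which encodes CD45, was detected in at least 85.3% of cells of each class described here, except in mature dendritic cells (1 of 3 cells). The class of natural killer (NK) cells and type 1 innate lymphoid cells (ILC1) also held UMIs of T cell markers, 2573 CPM over the list of 10 with 3 of them at 0, against 7140 CPM in T cells.

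Chemokines are small secreted proteins that guide leukocytes along a gradient through G protein-coupled receptors. Ccl3 and Ccl4, also known as macrophage inflammatory proteins, are made by activated myeloid and lymphoid cells, and Ccl3 signals through Ccr1, among other receptors. Ccl5, also called RANTES, is stored and released by cytotoxic and memory lymphocytes and signals through Ccr1 and Ccr3, among other receptors. Ccr1 is carried by neutrophils and other myeloid cells, while Ccr2 is known chiefly as the receptor of Ccl2, Ccl7 and Ccl12 on monocytes that enter tissue, so it is not the main receptor of the 3 ligands described here.

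The 3 ligands lie in 1 cluster on chromosome 11 and both receptors in another on chromosome 9, all annotated as protein coding in GENCODE vM21 on GRCm38. Ccl5 (ENSMUSG00000035042) lies at chr11:83525778-83530518 on the minus strand, Ccl3 (ENSMUSG00000000982) at chr11:83647844-83649355 on the minus strand and Ccl4 (ENSMUSG00000018930) at chr11:83662584-83664683 on the plus strand. Ccl3 and Ccl4 are 13.2 kb apart and point away from each other. Ccr1 (ENSMUSG00000025804) lies at chr9:123962124-123968692 on the minus strand and Ccr2 (ENSMUSG00000049103) at chr9:124101950-124113557 on the plus strand. Since macrophages with Ccl3 differed from those without it in many immediate early genes, the 250 bases before the start of Ccl3 are shown, from RefSeq on GRCm38.p6, minus strand, chr11:83649379-83649628, with the letters TATAAG, the core of a TATA box, in capitals on either strand.
Ccl3 promoter: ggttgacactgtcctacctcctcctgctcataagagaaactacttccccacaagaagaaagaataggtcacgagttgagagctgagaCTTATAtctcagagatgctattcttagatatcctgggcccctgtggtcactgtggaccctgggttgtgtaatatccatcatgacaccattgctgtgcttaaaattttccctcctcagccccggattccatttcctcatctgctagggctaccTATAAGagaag
The motif TATAAG begins 11 bases before the RefSeq start and 34 bases before the GENCODE start, and its reverse complement begins 163 bases before the RefSeq start. Among 32851 promoter windows of the same 250 bases, 6.6% held TATAAG on either strand. The letters TGANTCA (AP-1, present in 6.7% of windows) and GGG followed by any 5 bases and CC (NF-kB, present in 45.8%) were searched on both strands and were not found in the window of Ccl3. The window of Ccr1 held 1 match to the NF-kB letters. That of Ccr2, at chr9:124101933-124102182 on the plus strand, held none of the 3 motifs. Most of the Ccr2 window lies past the GENCODE start of Ccr2 at 124101950, inside the annotated gene. The bases before the GENCODE start of Ccr2 were therefore mostly not searched.

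Ccl5 was the most abundant of the 5 genes, and most of it came from lymphocytes. Over all kept cells there were 21240 UMIs of Ccl5 in 807 cells, 10845 of Ccl4 in 420 cells, 3280 of Ccl3 in 293 cells, 2542 of Ccr2 in 683 cells and 438 of Ccr1 in 135 cells. T cells held 53.6% of the Ccl5 UMIs and NK cells and ILC1 held 34.9%. Of the Ccr2 UMIs, 49.0% were in T cells and 23.2% in type 1 conventional dendritic cells (cDC1), the class that cross-presents antigen. Ccr1 was held at 68.3% by neutrophils and at 16.9% by macrophages other than Kupffer cells.

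**Figure D1:**
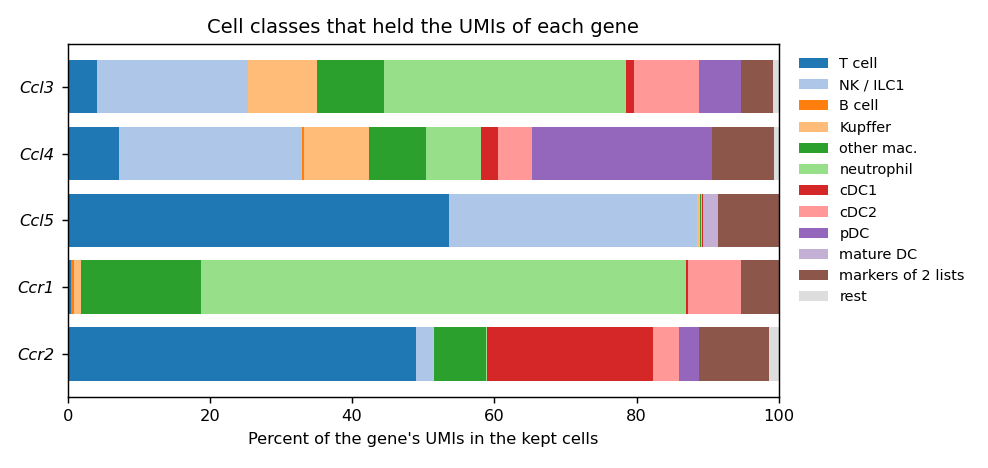
Percent of the UMIs of each gene (x axis; 1 bar per gene down the page) that lay in cells of each class (colours), over all kept cells of the 4 libraries. Lymphocytes fill most of the bar of Ccl5 and neutrophils most of the bar of Ccr1, while pDCs hold 25.3% of Ccl4; cells with markers of 2 lists (brown) were left out of every class.

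Among the classes with at least 5 cells in 2 or more libraries, Ccl5 separated NK cells, ILC1 and T cells from the other 7. In NK cells and ILC1 its level was 10376 and 13602 CPM in PV replicates 1 and 2 and 14028 and 17445 CPM in CV replicates 1 and 2, a mean of 13863 ± 2892 CPM (SD, n = 4 libraries). In T cells it was 2674 and 2025 CPM in the PV libraries and 2877 and 1897 CPM in the CV libraries, a mean of 2368 ± 480 CPM (SD, n = 4). The ranges of both classes did not overlap, and no library of the other 7 classes with at least 5 cells went above 307 CPM. With every cell thinned to 2000 UMIs, Ccl5 was detected in 91 of 92 NK cells and ILC1 (98.9%, 95% Wilson interval 94.1% to 99.8%) and in 522 of 710 T cells (73.5%, 70.2% to 76.6%). Before thinning it was detected in 99% of NK cells and ILC1 and 81.5% of T cells. B cells, taken as the class that should lack the gene, had Ccl5 in 2 of 146 thinned cells (1.37%, 0.38% to 4.86%), at a median of 3662 UMIs per cell before thinning against 4840 UMIs in NK cells and ILC1 and 6159 UMIs in T cells. The intervals here and below cover counting error only. Outside these lymphocytes, 2 of 3 mature dendritic cells held 449 Ccl5 UMIs, 336 of them in 1 cell. Pooled over these 3 cells the level was 6580 CPM, above that of T cells in each library.

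Within T cells, the mean level of Ccr2 was lower in cells with CD8 than in cells with CD4 transcripts, which was not tested. The 56 T cells with Cd8a or Cd8b1 and no Cd4 had little Ccr2, at 28.0 ± 28.5 CPM, against 282 ± 78.3 CPM in the 192 cells with Cd4 alone (SD, n = 4 each). The CD8 value rests on 18 UMIs in 5 cells, 14 of the UMIs in CV replicate 2. CV replicate 1 held only 4 CD8 cells, without a Ccr2 UMI. The 476 T cells with neither transcript had 283 ± 59.5 CPM (SD, n = 4). Ccl5 ranged from 881.4 to 6459 CPM in these CD8 cells and from 1959 to 2892 CPM in the CD4 cells.

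Ccl4 was highest in plasmacytoid dendritic cells (pDCs), the class specialised in type I interferon. Its level was 8465 CPM in PV replicate 2, and 10632 and 11526 CPM in CV replicates 1 and 2, a mean of 10208 ± 1574 CPM (SD, n = 3); PV replicate 1 held a single pDC, without Ccl4. These 31 cells were 1.95% of the kept cells and held 25.3% of the Ccl4 UMIs. Few cells carried the level: 21 of the 31 had a Ccl4 UMI, and 1 cell had 583 of the 2740 UMIs (21.3%). The NK cell and ILC1 marker list summed to 5627 CPM in pDCs, against 10182 CPM in NK cells and ILC1. In pDCs 5 of its 10 markers were at 0 and 2 were found in at least 10% of cells. The list holds Tyrobp and Fcer1g, which macrophages also express. It summed to 8467 CPM in neutrophils, 5721 CPM in monocytes and 4710 CPM in Kupffer cells, but to 510 CPM in T cells. Ccl5, at 10376 CPM or more in each NK cell and ILC1 sum, had 1 UMI in all pDCs. The part of NK cell transcripts in the pDC values was not tested. NK cells and ILC1 came next with 6680 and 3142 CPM of Ccl4 in the PV libraries and 8650 and 4678 CPM in the CV ones. This range overlapped that of pDCs. In PV replicate 1, 1 of 8 NK cells and ILC1 held 190 of the 197 UMIs. Macrophages other than Kupffer cells (2211 ± 690 CPM), neutrophils (2206 ± 2249 CPM, SD, n = 4 each) and type 2 conventional dendritic cells (cDC2, 1185 ± 1551 CPM, SD, n = 2) overlapped each other. Kupffer cells, the resident macrophages of the liver sinusoids, had 589 ± 298 CPM (SD, n = 3), while cDC1, T cells and B cells had 178 ± 80.0, 156 ± 101 and 29.7 ± 43.7 CPM (SD, n = 4 each).

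Ccl3 was highest on average in neutrophils, but its level there differed widely between libraries. It was 5517 and 184 CPM in PV replicates 1 and 2 and 5273 and 1353 CPM in CV replicates 1 and 2, from 22, 13, 37 and 15 neutrophils. Replicate 1 of each zone was high and replicate 2 of each zone was low. Some other values of these neutrophils were also higher in replicate 1 of each zone. The summed level of the NF-kB target and inflammatory genes was 64087 and 34282 CPM in the PV libraries, against 64662 and 48522 CPM in the CV ones. The mitochondrial share was 0.218% and 0.120% in the PV libraries, against 0.235% and 0.197% in the CV ones. The immediate early genes broke this order in CV, with 47347 and 21585 CPM in the PV libraries and 32671 and 35117 CPM in the CV ones. The part of these values in the spread was not tested. Ccl4 in the same cells was higher in replicate 1 of each zone, with 3628 and 41.0 CPM in the PV libraries, against 4601 and 555.5 CPM in the CV ones. In NK cells and ILC1, Ccl3 was at 915.5 and 1055 CPM in the PV libraries, against 1580 and 1564 CPM in the CV ones. The mean was 1279 ± 344 CPM (SD, n = 4). Single cells carried the PV values: 1 of 8 cells held 26 of the 27 UMIs in PV replicate 1. In PV replicate 2, 1 cell held 48 of 95. Other macrophages had 998 ± 863 CPM (SD, n = 4), pDCs 826 ± 552 CPM (SD, n = 3) and cDC2 747 ± 463 CPM (SD, n = 2), and the ranges of neighbours from neutrophils to cDC2 overlapped. Kupffer cells had 192 ± 149 CPM (SD, n = 3), T cells 30.1 ± 24.9 CPM and B cells 2.33 ± 4.65 CPM (SD, n = 4 each). No B cell thinned to 2000 UMIs had a Ccl3 UMI, 0 of 146, which allows up to 2.05% of cells with a UMI at that depth and does not limit the share that expresses the gene; before thinning it was 2 of 154 B cells. The limits for 0 cells given below are to be read in the same way.

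Ccr1 was found mainly in neutrophils. Its level in neutrophils was 1247 and 901.1 CPM in the PV libraries, against 1086 and 724.6 CPM in the CV ones, a mean of 990 ± 226 CPM (SD, n = 4). After thinning it was found in 66 of 82 neutrophils (80.5%, 70.6% to 87.6%), in 9 of 43 other macrophages (20.9%, 11.4% to 35.2%) and in 4 of 29 cDC2 (13.8%, 5.50% to 30.6%). Before thinning these shares were 88.5%, 44% and 58.6%. In thinned cells it was found in 0 of 710 T cells, which allows up to 0.423% with a UMI, in 0 of 92 NK cells and ILC1 (up to 3.26%), in 1 of 186 Kupffer cells and in 0 of 146 B cells (up to 2.05%); before thinning 2 of 728 T cells, 0 of 100 NK cells and ILC1, 3 of 218 Kupffer cells and 2 of 154 B cells had a Ccr1 UMI. The median depth before thinning was 3140 UMIs in neutrophils, below that of B cells. Of the neutrophils with a Ccl3 UMI, 36 of 44 had Ccr1 (81.8%), and of those without Ccl3 it was 78.9%.

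Among the classes with at least 5 cells in 2 or more libraries, Ccr2 had its highest mean in other macrophages, followed by cDC1, T cells, pDCs and cDC2. Other macrophages had 479.2 and 304.7 CPM in the PV libraries, against 324.1 and 1020 CPM in the CV ones (mean 532 ± 335 CPM), cDC1 had a mean of 386 ± 77.3 CPM and T cells 257 ± 43.4 CPM (SD, n = 4 each). The range of other macrophages overlapped that of cDC1, from 304.8 to 467 CPM, and 1 cell held 30 of the 59 UMIs behind the highest value, that of CV replicate 2. The ranges of cDC1 and T cells did not overlap, whereas T cells overlapped with pDCs (206 ± 124 CPM, SD, n = 3). Kupffer cells had 1.86 ± 1.65 CPM (SD, n = 3) and 0 of 186 thinned cells with a UMI, which allows up to 1.61%, and 3 of 218 before thinning. In other macrophages it was 18 of 43 thinned cells (41.9%, 28.4% to 56.7%) and 25 of 50 before thinning. B cells had no Ccr2 UMI before thinning either. After thinning Ccr2 was found in 32 of 80 cDC1 (40%, 29.96% to 51.0%) and in 247 of 710 T cells (34.8%, 31.4% to 38.4%), against 93.75% of cDC1 and 66.2% of T cells before thinning. The 11 monocytes, 5 of them in CV replicate 2, had 31 Ccr2 UMIs in 4 cells, and their level in CV replicate 2 was 546 CPM.

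**Figure D2:**
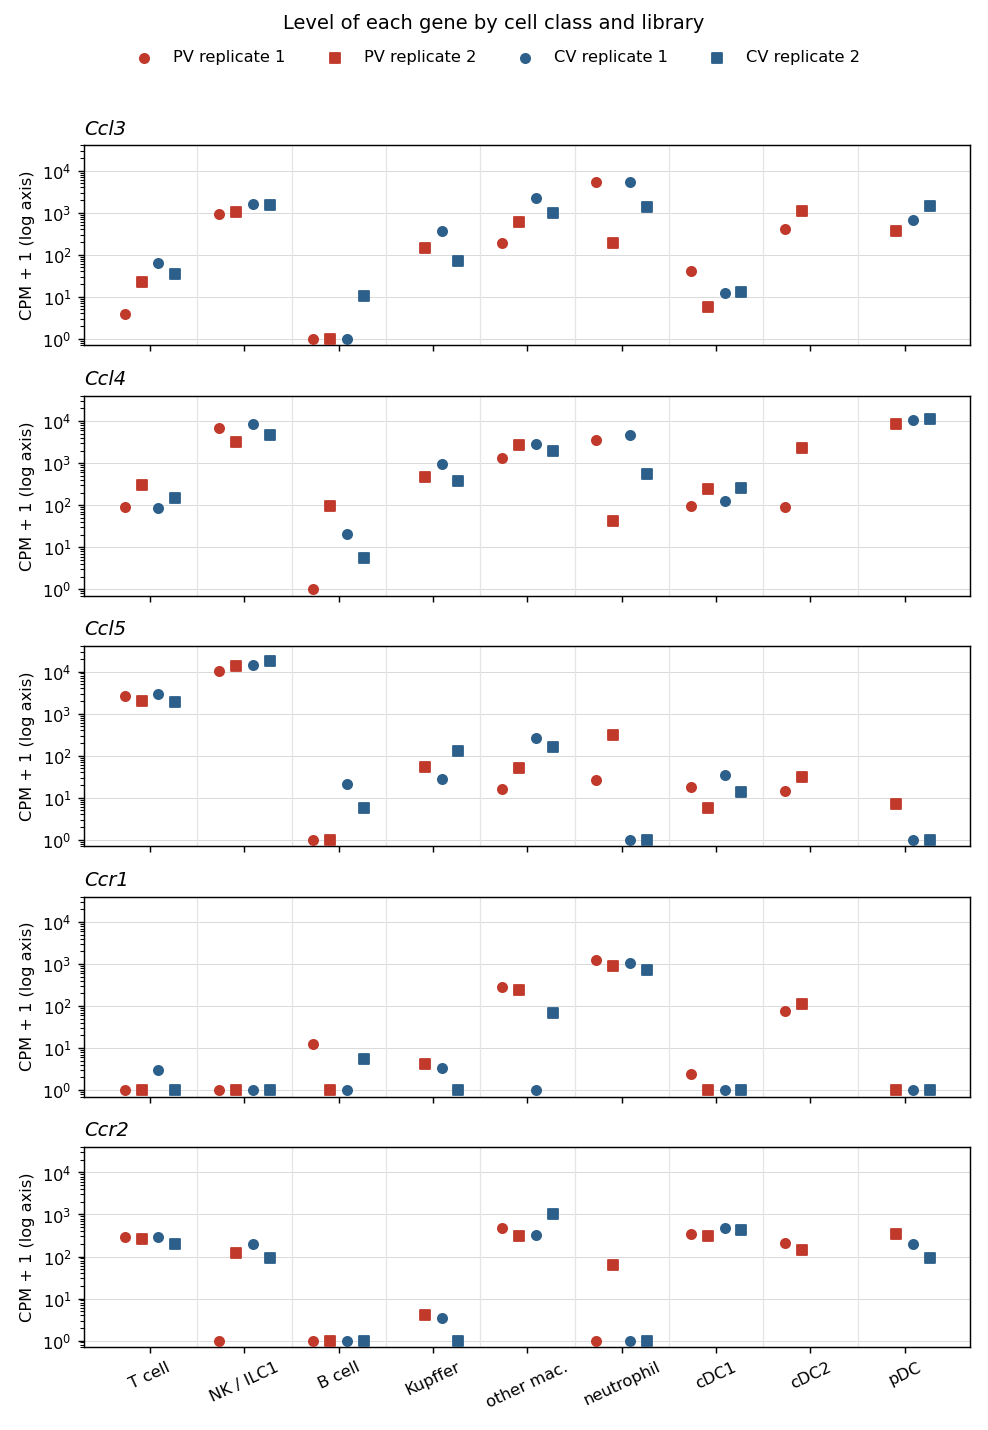
Level of each gene as CPM + 1 on a log axis (y) for each cell class (x) in each library; PV libraries are red, CV libraries blue, replicate 1 circles and replicate 2 squares, and only libraries with at least 5 cells of the class are drawn. Ccl5 stands at 1897 CPM or more in T cells and in NK cells and ILC1 in all 4 libraries, and the 2 replicates of a zone lie far apart for Ccl3 and Ccl4 in neutrophils.

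Of the 17 other CC chemokines of the fixed list, 4 had no UMI and 2 had at least 1000: Ccl6, a myeloid chemokine of mice, led in neutrophils at 2876 ± 152 CPM (SD, n = 4), and Ccl24, a ligand of Ccr3, in Kupffer cells at 674 ± 307 CPM (SD, n = 3). Ccl2, the chief ligand of Ccr2, had 257 UMIs and was highest in other macrophages at 188 ± 198 CPM (SD, n = 4). Of the 13 other receptors and decoys, 2 had no UMI; Ccrl2, a decoy-like receptor, led in neutrophils at 2745 ± 1412 CPM (SD, n = 4), Ccr9 in pDCs at 1077 ± 164 CPM (SD, n = 3) and Ccr7, the lymph node homing receptor, in B cells at 416 ± 144 CPM (SD, n = 4).

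Ccl3 and Ccl4 were found in the same cells in each of the 7 classes compared, and in unequal ratios. Among NK cells and ILC1 thinned to 2000 UMIs, 41 of 43 with a Ccl3 UMI had Ccl4 (95.3%, 84.5% to 98.7%), against 24 of 49 without Ccl3 (49.0%, 35.6% to 62.5%). Among neutrophils it was 19 of 44 (43.2%, 29.7% to 57.8%) against 6 of 38 (15.8%, 7.44% to 30.4%). Among Kupffer cells it was 21 of 38 (55.3%, 39.7% to 69.9%) against 37 of 148 (25%, 18.7% to 32.5%), and among T cells 10 of 17 (58.8%, 36.0% to 78.4%) against 35 of 693 (5.05%, 3.65% to 6.94%). These cells were pooled over the 4 libraries, and cells of 1 library are not replicates. No test was made, and the intervals do not compare the states. In PV replicates 1 and 2 and CV replicates 1 and 2, 0 of 2, 5 of 5, 2 of 5 and 3 of 5 T cells with Ccl3 had Ccl4. In neutrophils the share was 28.6%, 33.3%, 52.2% and 50% with Ccl3, against 16.7%, 0%, 30.8% and 10% without it. The PV replicate 1 and CV replicate 1 neutrophils with Ccl3 numbered 14 and 23 of the 44. Per UMI of Ccl3 there were 14.2 UMIs of Ccl4 in pDCs, 4.01 in NK cells and ILC1, 3.17 in Kupffer cells, 2.76 in other macrophages and 0.76 in neutrophils. The ratio was 0.658, 0.222, 0.873 and 0.411 in neutrophils in PV replicates 1 and 2 and in CV replicates 1 and 2, and 7.30, 2.98, 5.47 and 2.99 in NK cells and ILC1. All 4 neutrophil ratios were below 1 and all 4 NK cell and ILC1 ratios above it. In the NK cells and ILC1 of PV replicate 1, 1 cell held 26 of 27 Ccl3 UMIs and 1 held 190 of 197 Ccl4 UMIs.

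**Figure D3:**
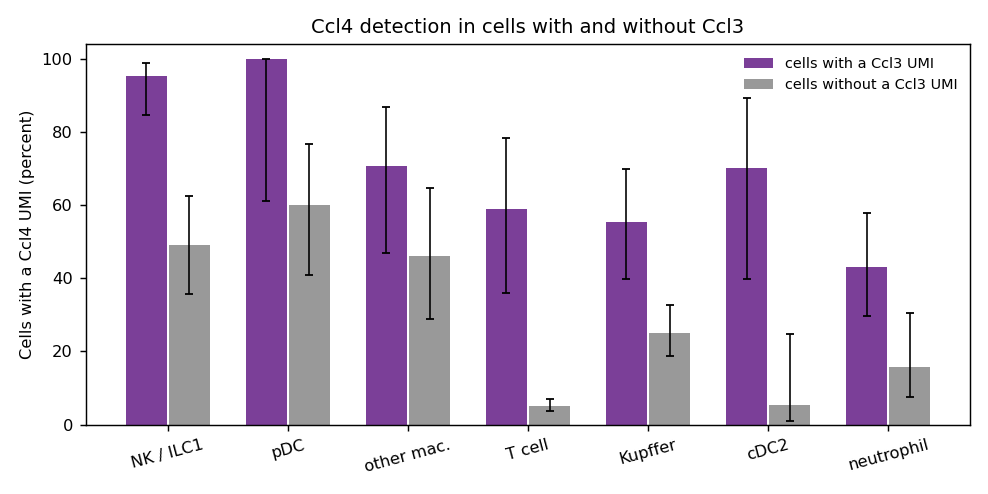
Percent of cells with a Ccl4 UMI (y axis) among cells with a Ccl3 UMI (purple) and without one (grey), by class, after thinning each cell to 2000 UMIs; error bars are 95% Wilson intervals and cover counting error only. Over cells pooled from the 4 libraries, the share was higher with Ccl3 in each of the 7 classes drawn, at 95.3% against 49.0% in NK cells and ILC1.

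Across the 9 classes with a mean level, the pattern of Ccl3 was most like that of Ccl4 among 5392 genes (Pearson's r = 0.91 of log2(CPM + 10) over class means). The genes most like Ccl5 were Tnfsf10 (r = 0.98), Cracr2a, Cysltr2, Sytl2 and Xcl1, each highest in NK cells and ILC1. Those most like Ccr1 were Ptgs2 (r = 0.96), Socs3, Sirpb1b, Gla and Kdm6b, each highest in neutrophils. For Ccr2 the closest were Sugt1 (r = 0.88), Polr2l, Vps72, Aurkaip1 and Paxbp1. These values describe 9 class means that share the same libraries and depth.

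For the question of zones, counts were summed per library and class and PV was compared with CV. T cells had at least 20 cells in every library (201 and 201 in PV, 166 and 160 in CV); macrophages (Kupffer cells and others together), neutrophils and cDC1 had at least 12, and were added after the numbers of cells were seen. No member passed the test in any of the 4 classes with the quasi-likelihood test of edgeR, which compares the zones with the spread between libraries. Neither did any other gene: 0% of 7956 genes in T cells, 0% of 5595 in macrophages, 0% of 906 in neutrophils and 0% of 3701 in cDC1 were called. At an unadjusted p under 0.05 there were 226 genes in T cells, 124 in macrophages, 24 in neutrophils and 240 in cDC1, and DESeq2 called 0 genes in T cells, neutrophils and cDC1 and 2 in macrophages.

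In T cells, Ccl3 had 3.0 and 21.6 CPM in the PV libraries, against 62.3 and 33.7 CPM in the CV ones, from 4 and 29 UMIs in PV and 63 and 38 UMIs in CV. Both PV libraries were below both CV libraries, as for 11.7% of the genes tested. The log2 fold change, PV over CV, was -1.99 ± 0.55 (SE), with an edgeR adjusted p of 1.0 and an unadjusted p of 0.0043. Single cells carried the CV values: 1 T cell held 51 of the 63 Ccl3 UMIs in CV replicate 1 and 1 held 23 of 38 in CV replicate 2. In PV replicates 1 and 2 the top cell held 1 of 4 and 10 of 29. The part of these cells in the zone values was not tested. With the replicate number as a block the edgeR adjusted p of Ccl3 was 0.0036. Its log2 fold change was -1.16 without PV replicate 1 and -4.01 without PV replicate 2. It was -1.51 without CV replicate 1 and -2.36 without CV replicate 2. Ccl5 (log2 fold change -0.07 ± 0.18), Ccr2 (0.14 ± 0.18) and Ccl4 (0.72 ± 0.45, SE) did not pass (edgeR adjusted p 1.0 for each). Ccl4 passed without PV replicate 1 (1.34, adjusted p 0.000245) and without CV replicate 2 (1.23, adjusted p 0.000259), and had -0.40 without PV replicate 2.

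In macrophages, Ccr1 had 243.8 and 32.9 CPM in the PV libraries (37 and 36 UMIs) and 2.1 and 10.0 CPM in the CV ones (1 and 4 UMIs). Both PV libraries were above both CV libraries, as for 13.7% of the genes tested, and the log2 fold change was 4.31 ± 1.20 (SE; edgeR adjusted p 1.0, unadjusted p 0.0062). Ccr1 passed the filter on low counts through the PV libraries alone, as both CV libraries were under its limit. Its fold change and p-values are therefore given as a description. Without PV replicate 2 or CV replicate 1 its adjusted p was 0.00207 and 0.00584, with the replicate block 0.0305, and with no filter on low counts 2.85e-09; without PV replicate 1 the fold change was 2.46, with an adjusted p of 1.0. The macrophages of the libraries differed in kind: 15 of 19 in PV replicate 1 and 18 of 136 in PV replicate 2 were not Kupffer cells, against 9 of 64 and 8 of 49 in CV. Within the other macrophages alone Ccr1 was at 277 and 233.8 CPM in the PV libraries, from 37 and 33 UMIs in 15 and 18 cells. In the CV libraries it was at 0 and 69.2 CPM, from 0 and 4 UMIs in 9 and 8 cells, with 3 of the 4 UMIs in 1 cell. The part of the makeup in the zone values was not tested. Ccl5 in macrophages was lower in both PV libraries (26.4 and 52.2 CPM) than in both CV libraries (58.5 and 133.1 CPM), as for 16.3% of genes tested, and its log2 fold change was -1.04 ± 0.46 (SE; adjusted p 1.0 with edgeR). Ccl3 (-1.02 ± 0.51), Ccr2 (1.23 ± 0.97) and Ccl4 (0.37 ± 0.48, log2 fold change ± SE) overlapped between zones.

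In neutrophils the PV and CV libraries overlapped for each member tested. The log2 fold changes, PV over CV, were 0.29 ± 0.36 for Ccr1, -0.16 ± 1.19 for Ccl3 and -0.45 ± 1.39 for Ccl4 (SE; edgeR adjusted p 0.995 for each); for both ligands the error is several times the difference, and PV replicate 2 had 9 UMIs of Ccl3 and 2 of Ccl4. Without PV replicate 1, which leaves PV replicate 2 alone in its zone, both ligands passed, Ccl3 at -4.18 (adjusted p 1.05e-13) and Ccl4 at -5.97 (adjusted p 4.77e-16); without CV replicate 1 they had 1.17 and 1.82 (adjusted p 0.99 for each). In cDC1, Ccr2 had 337.1 and 304.8 CPM in the PV libraries, against 467 and 434.6 CPM in the CV ones. Both PV libraries were lower, as for 19.8% of genes tested, and the log2 fold change of -0.44 ± 0.19 (SE) did not pass (edgeR adjusted p 0.758, unadjusted p 0.044).

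**Figure D4:**
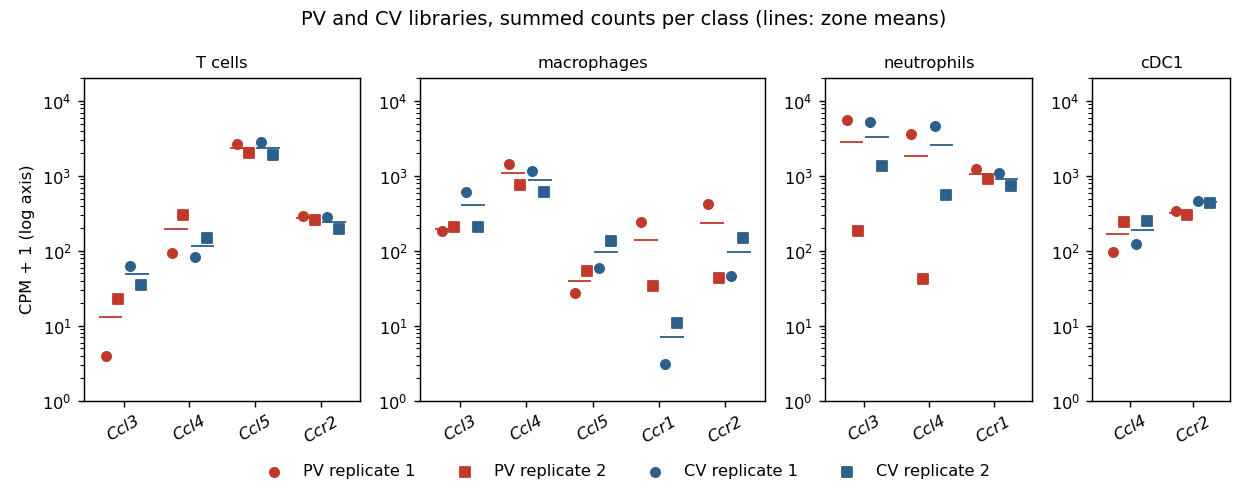
CPM + 1 on a log axis (y) of the members tested (x) in sums of T cells, macrophages, neutrophils and cDC1; PV libraries red on the left, CV libraries blue on the right, short lines the zone means. Zones are apart for Ccl3 in T cells, for Ccr1 and Ccl5 in macrophages and for Ccr2 in cDC1, and no member passed the test. Single T cells held 51 of 63 Ccl3 UMIs in CV replicate 1 and 23 of 38 in CV replicate 2.

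Which T cells make Ccl5 was asked by comparing Ccl5-positive with Ccl5-negative T cells of the same library, all thinned to 2000 UMIs, with Ccl5 itself left out and the library as a block. There were 150, 129, 131 and 112 positive cells against 42, 70, 29 and 47 negative cells in PV replicates 1 and 2 and CV replicates 1 and 2. In Ccl5-positive cells, 12 of 23 tested effector and residency genes were higher and 7 of 8 recirculation and quiescence genes were lower. Of 2349 genes tested, 154 (6.56%) passed the edgeR quasi-likelihood test, 53 higher (2.26%) and 101 lower (4.3%) in positive cells. A gene can enter the test through the state where it is high, so these counts depend in part on which genes entered.

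Ccl4 had the smallest p of all genes tested, with 70.3, 536.5, 80.5 and 107.5 CPM in Ccl5-positive cells in PV replicates 1 and 2 and in CV replicates 1 and 2, against 0, 28.6, 0 and 63.8 CPM in negative cells. It was higher in 4 of 4 libraries, by 3.05 ± 0.38 on the log2 scale (SE; edgeR adjusted p 2.26e-12); 16.9% of genes tested were higher in the positive cells of all 4 libraries and 7.49% were lower. PV replicate 2 held 138 of its 204 UMIs in positive cells; without that library the fold change was 1.69 (adjusted p 0.11), and with stricter limits on cells it was 1.33 (adjusted p 0.138). Negative cells held 0, 4, 0 and 6 Ccl4 UMIs in these libraries, so Ccl4 could enter the test through the positive cells alone. Its fold changes and p-values are therefore given as a description. Ccr2 had 270 CPM in positive and 204 CPM in negative cells on average (0.29 ± 0.21, SE, edgeR adjusted p 0.598).

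Of the 30 effector and residency genes, 23 were tested; 12 rose and 1 fell, with a median of 0.58 on the log2 scale against -0.0034 over all genes tested. The chemokine Xcl1, which draws cDC1, rose to 628 CPM, against 277 CPM in Ccl5-negative cells (1.11 ± 0.18, SE, edgeR adjusted p 7.72e-08), and interferon gamma, Ifng, to 428 CPM, against 201 CPM in Ccl5-negative cells (1.05 ± 0.20, adjusted p 1.63e-05). Cd160, an NK cell receptor (1.58 ± 0.28), Itga1, an integrin of tissue-resident lymphocytes (1.69 ± 0.39), and Gzmb, a granule protease (1.10 ± 0.21), rose as well. S100a4, a calcium-binding protein, fell by 0.87 ± 0.23 on the log2 scale (adjusted p 0.0042). Among the genes outside the lists, Cd7 (2.56 ± 0.33), the NK cell receptor genes Klre1 (2.09 ± 0.36) and Klrc1 (1.39 ± 0.26), and the T cell receptor gamma genes Trgv2 (1.80 ± 0.34) and Tcrg-C2 (1.68 ± 0.34) rose.

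Of the 12 recirculation and quiescence genes, 8 were tested and 7 fell, with a median of -1.13 on the log2 scale. S1pr1, the receptor that lets lymphocytes leave tissue, was at 14.0 CPM in positive and 130 CPM in negative cells (-3.25 ± 0.46, SE, edgeR adjusted p 5.77e-10). Il7r, the receptor of the survival factor interleukin 7, was at 416 CPM in positive and 842 CPM in negative cells (-1.15 ± 0.15), and the transcription factors Tcf7 (-1.69 ± 0.26) and Lef1 (-1.12 ± 0.24) of naive and memory T cells fell too. Igfbp4 had 1 UMI in all positive cells and 29 in the negative cells, and S1pr1 had 15 and 51. Both could enter the test through the negative cells alone, so their values are given as a description. Emb (-1.74 ± 0.25), Atp1b3 (-1.47 ± 0.24), Gpr183 (-1.73 ± 0.34), Tsc22d3 (-1.19 ± 0.20) and Cd247 (-1.23 ± 0.26) were the other genes that fell among those named by the rule. Of the immediate early genes, 1 of 17 tested rose, Dusp2 (0.94 ± 0.20, edgeR adjusted p 0.000166). Of the NF-kB target and inflammatory genes, 1 of 9 tested fell, Nfkbia (-0.58 ± 0.18, adjusted p 0.032; 0.22 with shared barcodes kept), and of the G protein signalling genes, 1 of 12 tested rose, Rgs1 (0.64 ± 0.18, adjusted p 0.012). Of 79 genes whose symbols mark them as ribosomal proteins, counted after their values were seen, 46 fell and none rose, with a median of -0.34. Cxcr6, a receptor of liver-resident lymphocytes, was found in 386 of 522 positive and in 90 of 188 negative cells, and the NK cell and ILC1 marker list summed to 624 CPM in positive and 271 CPM in negative cells; the part of the NK cell markers in the difference was not tested. A test among Cxcr6-positive T cells alone used a larger set than these 386 and 90 cells. In PV replicates 1 and 2 and CV replicates 1 and 2 it held 142, 121, 119 and 103 Ccl5-positive cells. Its Ccl5-negative cells numbered 34, 43, 20 and 21. There, 5 of 2036 genes passed, 4 of them among the 154. These 5, listed after their values were seen, were Ccl4 (2.38), Cd7 (2.21) and Hspa1b (0.71), which were higher, and Emb (-1.61) and Tmem176b (-1.15), which were lower, on the log2 scale. Lef1 and Klf2 had 0.52 and 0.40 there, the opposite sign to that in all T cells.

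Ccr2-positive T cells, compared in the same way, differed in few genes at 2000 UMIs per cell. Before thinning 482 of 728 T cells had a Ccr2 UMI, against 247 of 710 after it. Many cells of the negative group therefore had Ccr2 UMIs before thinning. The count of genes past the test was 5 at 1000 UMIs and 66 at 3000 UMIs, so a small count here does not show that the states are alike. There were 78, 66, 58 and 45 positive cells against 114, 133, 102 and 114 negative cells in PV replicates 1 and 2 and CV replicates 1 and 2. Of 2400 genes, 10 (0.417%) passed the edgeR test, 1 higher (0.0417%) and 9 lower (0.375%) in positive cells. Both ligands tested were lower in level. After thinning, 196 of the 247 Ccr2-positive T cells had a Ccl5 UMI. Ccr2 was found in 37.5% of Ccl5-positive against 27.1% of Ccl5-negative T cells, and in 28.9% of Ccl4-positive against 35.2% of Ccl4-negative ones. These shares were not tested. Ccl5 was at 2502, 1410, 2847 and 2012 CPM in Ccr2-positive cells, against 3211, 2173, 3525 and 2320 CPM in Ccr2-negative cells, lower in 4 of 4 libraries, as for 5.12% of genes tested, with 10.1% higher in all 4 (-0.43 ± 0.09, SE, edgeR adjusted p 0.0012). Ccl4 was lower in 3 of 4 libraries, with 95.4 CPM on average in positive and 171 CPM in negative cells (-1.04 ± 0.25, adjusted p 0.016). Hist1h2ap, a histone gene (-2.87 ± 0.31), Cd7 (-1.33 ± 0.23), Klf2, a transcription factor of circulating T cells (-1.12 ± 0.19), and the integrin Itga4 (-1.79 ± 0.35) fell, and Ly6c2, a surface protein of memory T cells, rose (0.73 ± 0.19; -0.043 with shared barcodes kept and -0.060 thinned to 1000 UMIs). Of the fixed lists, 1 of 22 effector genes tested rose and 1 of 6 recirculation genes fell, with 0 of 17 immediate early, 0 of 9 NF-kB target and 0 of 12 G protein signalling genes called by edgeR; of these, Fos, Fosb, Dnajb1, Dusp2, Nfkbia and Bcl2a1b had an unadjusted p under 0.05. No gene passed without PV replicate 2 or with stricter limits on cells, where Ccl5 had -0.34 and -0.31, and without PV replicate 1 it had -0.45 (adjusted p 0.134). Ccl5 did not pass with DESeq2 (adjusted p 0.134) or with no library block (0.609) either. Ccl4 did not pass with DESeq2 (adjusted p 0.998), with no library block (0.811), with stricter limits on cells (0.688) or without PV replicate 1 (0.315), PV replicate 2 (0.902) or CV replicate 1 (0.141). Among Cxcr6-positive T cells Ccl5 had -0.45 (adjusted p 1.53e-05).

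Macrophages with a Ccl3 UMI were set against those without, again within libraries at 2000 UMIs per cell, from 3, 27, 22 and 3 positive cells against 14, 94, 32 and 34 negative cells in PV replicates 1 and 2 and CV replicates 1 and 2. In Ccl3-positive macrophages, the tested immediate early genes, which cells switch on soon after a stimulus, were higher, and so were 5 of 10 tested NF-kB target and inflammatory genes. Of 732 genes, 36 (4.92%) passed the edgeR test, 35 higher (4.78%) and 1 lower (0.137%). Ccl4 was at 2836, 2873, 3188 and 4843 CPM in Ccl3-positive cells, against 1250, 367, 265.6 and 426.5 CPM in Ccl3-negative cells. It was higher in 4 of 4 libraries, and its smallest positive value was above its largest negative one; 8.74% of genes tested were higher in all 4 libraries and 14.1% lower (2.83 ± 0.31 on the log2 scale, SE, edgeR adjusted p 1.28e-06).

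Of the 24 immediate early genes 16 could be tested, and these 16 rose, with a median of 2.02 on the log2 scale against -0.12 over all genes tested. A gene can enter the test through the positive cells if it is high there, so this count depends in part on which genes entered. Klf4, for instance, had 586 CPM on average in positive and 133 CPM in negative cells. Jun, a subunit of AP-1, was at 2836, 3225, 2368 and 5678 CPM in positive cells, against 1107, 723.4, 437.5 and 382.4 CPM in negative cells, without overlap (2.41 ± 0.30, SE, edgeR adjusted p 3.27e-06). Its partner Fos (2.04 ± 0.27), the transcription factor Egr1 (2.28 ± 0.31), the phosphatase Dusp1 (1.79 ± 0.24) and the heat shock genes Hspa1a (2.27 ± 0.29) and Hspa1b (2.25 ± 0.27) rose, as did Junb (1.80 ± 0.28), Ier5 (2.01 ± 0.35) and Klf4 (2.06 ± 0.37). Hspa1a and Hspa1b are near-identical copies, so their reads may have been split between them. Of the 27 NF-kB target and inflammatory genes, 10 were tested and 5 rose: Cxcl2, which attracts neutrophils (1.83 ± 0.36), Tnf (2.32 ± 0.56), Cd83 (1.38 ± 0.36) and the NF-kB inhibitors Nfkbia (1.05 ± 0.28) and Nfkbiz (1.44 ± 0.32); Il1b had 0.80 ± 0.28 (adjusted p 0.123). Rgs1 (1.29 ± 0.34) and Rgs2 (1.16 ± 0.31), which damp G protein signalling, were the 2 of 8 tested genes of that list that rose. Cxcl13, a B cell chemokine outside the naming rule and the fixed lists, was the gene that fell (-1.50 ± 0.37, adjusted p 0.012). It was not lower in all 4 libraries. The other 2 CC chemokines tested were Ccl6 (-0.19 ± 0.28) and Ccl24 (-0.25 ± 0.33).

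The makeup of the cells differed between the states: of the 55 positive macrophages 17 were not Kupffer cells, against 26 of the 174 negative ones. In Kupffer cells alone, where PV replicate 2 and CV replicate 1 had enough positive cells, 51 genes passed, 31 of them among the 36; Ccl4 was then at 2.72 and Jun at 1.46. Hepatocyte markers summed to 1164 CPM in positive and 1221 CPM in negative cells, neutrophil markers to 127 CPM in positive and 66.1 CPM in negative cells, and T cell markers to 72.7 CPM in positive and 60.3 CPM in negative cells. The NK cell and ILC1 list, which holds Tyrobp and Fcer1g, genes that macrophages also express, summed to 3491 CPM in positive and 4609 CPM in negative cells; the part of these lists in the result was not tested. The median mitochondrial share was 2.56% in positive and 3.05% in negative cells. Without PV replicate 2, which held 27 of the positive cells, no gene passed; Ccl4 then had 2.77 and Jun 2.55 (adjusted p 0.0506 for each).

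**Figure D5:**
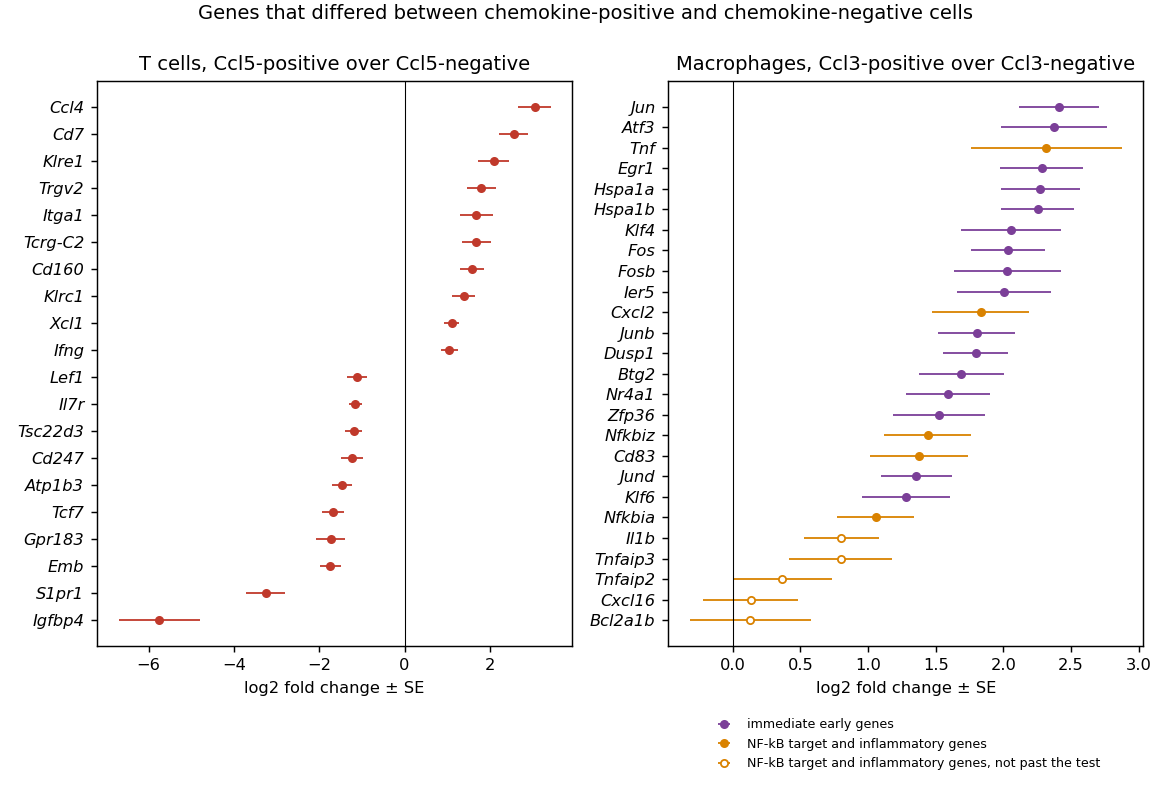
Log2 fold changes with SE (x axis) for the genes named by rule in Ccl5-positive over Ccl5-negative T cells (left) and for the tested immediate early and NF-kB genes in Ccl3-positive over Ccl3-negative macrophages (right), with 4 libraries in each comparison; open symbols did not pass the test, and the fitted value of Igfbp4, with 1 UMI in positive cells, depends on the prior count and is no bound. In macrophages the immediate early genes lie between 1.28 and 2.41.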

How the data were processed

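Single-cell RNA libraries of CD45+ liver cells were made with 10x Chromium 3′ v3.1 chemistry, per the labels' protocols, 2 from PV and 2 from CV, grouped by the zone in the labels. The authors deposited whole-number UMI counts for each gene in each barcode, from 2741760 to 4373488 UMIs per library over 588 to 755 barcodes. Cell Ranger 4.0.0 and the build mm10 are named, per the submitters' processing notes; annotation and cell calling: not given in the sources used here. Symbols were matched for 32158 of 32285 identifiers. The 5 genes, the gene lists and the tests were chosen with earlier results of these data known.

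Cells with at least 200 genes and at most 10% mitochondrial UMIs were kept, a shared barcode only where 1 library had 70% or more of its UMIs. A cell joined a class with at least 3 markers of its list and 2 more than of any other; Kupffer cells are macrophages with at least 3 Kupffer markers. The 71 cells with markers of 2 lists and 13 with too few stayed out; no doublet caller was run. Replicates of a zone differed beyond sampling noise (chi-square per degree of freedom 2.45 in PV and 2.79 in CV T cells). Class levels are means over libraries with at least 5 cells of the class, a limit set after the numbers of cells were seen.

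Counts summed per library were tested in edgeR 4.0.16 (R 4.3.3) with quasi-likelihood, TMM, filterByExpr and Benjamini-Hochberg adjustment at 0.05; DESeq2 1.42.0 was the other tool. With 2 libraries per zone an exact permutation test of a single value cannot go below 0.333. The filter on low counts can admit a gene through 1 group alone, the group where the gene is high. Cells for states, shares and co-detection were thinned to 2000 UMIs, leaving out shallower ones. Alternatives were other cell limits, gates, thinning, normalization, filters, blocks and left-out libraries. The tests were tried on simulated data. Named from each state test were, per direction, the 10 genes with the smallest p that changed at least 2-fold alike in all 4 libraries, beside fixed lists; gene models were not named, and genes outside this rule are said to be so. Promoter windows were given for 3 of the 5 genes, Ccl3, Ccr1 and Ccr2. Some genes of the fixed lists, and the cell sets defined with them, are not reported here.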

Additional observations from a re-analysis of the deposited data

How the results depend on the processing

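Each count below is of genes past the test. In the zone comparison of T cells it was 0 as reported, 2 with no filter on low counts, 9 with the replicate block and 8 to 47 with 1 library left out. In macrophages it was 0 as reported, 77 with no filter, 2 with DESeq2, 13 with the replicate block and 0 to 140 with 1 library left out. In neutrophils it was 0 as reported, 3 with no filter and 0 to 25 with 1 library left out; in cDC1 it was 0 as reported, 41 with no filter, 28 with the replicate block and 19 to 65 with 1 library left out. Such fits leave 1 library in a zone, which is assumed to vary like the other zone. The correlation of deviations of libraries with the same number was 0.131 in T cells, 0.0886 in macrophages, 0.223 in neutrophils and 0.119 in cDC1; with 2 pairs and labels that give no shared origin, the samples share only a number.

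For Ccl5-positive T cells the count was 154 as reported, 85 with DESeq2, 79 with no library block, 35 thinned to 1000 UMIs, 5 in Cxcr6-positive cells and 67 to 105 with 1 library left out. For Ccr2-positive T cells it was 10 as reported, 24 with no filter, 1 with DESeq2, 2 with no library block, 34 with shared barcodes kept, 0 with stricter cell limits, 5 thinned to 1000 UMIs, 66 thinned to 3000 UMIs and 0 to 17 with 1 library left out. For Ccl3-positive macrophages it was 36 as reported, 13 with no filter, 20 with DESeq2, 22 with no library block, 9 thinned to 1000 UMIs and 0 to 49 with 1 library left out. Thinning to fewer UMIs leaves fewer genes to test; the other causes were not tested.

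With 1 library left out, the log2 fold changes between zones ranged, in T cells, from -0.40 to 1.34 for Ccl4, -0.32 to 0.25 for Ccl5 and -0.092 to 0.41 for Ccr2. In macrophages they ranged from -1.63 to 0.034 for Ccl3, -0.26 to 0.99 for Ccl4 and -1.17 to 2.31 for Ccr2, in neutrophils from -4.18 to 1.17 for Ccl3, -5.97 to 1.82 for Ccl4 and -0.039 to 0.65 for Ccr1, and in cDC1 from -0.87 to 0.46 for Ccl4. In Cxcr6-positive T cells with Ccl5 the sign turned for Ccr2 (-0.12), Tsc22d3 (0.40), Lef1 (0.52), Il2rb (-0.056) and Klf2 (0.40), and with shared barcodes kept for Nfkbia (0.22). In Ccr2-positive T cells Ly6c2 had -0.043 with shared barcodes kept and -0.060 thinned to 1000 UMIs. Of 1123 fold changes under an alternative 853 kept direction and side of the threshold, and 473 of 480 levels and 694 of 750 shares moved by less than their spread. The Cxcr6-positive and Kupffer cell alternatives were chosen after seeing the data. Depth limits low genes: a class with few cells cannot show a share below the limit given for 0 cells.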

Other observations

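The order of the 4 libraries was counted by replicate number and by zone. Of 21 pairs of a gene and a class with at least 20 UMIs and at least 5 cells in every library, both libraries numbered 1 were above both numbered 2 in 7, and below them in 2. Both PV libraries were above both CV libraries in 1 and below in 6. The same count was not made over all genes, so nothing is read from it. One of the 7 was Ccl4 in neutrophils, with 3628 and 4601 CPM in PV and CV replicate 1 and 41.0 and 555.5 CPM in PV and CV replicate 2; Ccl3 and Ccr1 took the same order there. Ccl5 in T cells was at 2674 and 2877 CPM in the libraries numbered 1 and 2025 and 1897 CPM in those numbered 2. The labels do not say what the number stands for, so no test was made.

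The 71 cells with markers of 2 lists, which enter no class, held 8.47% of the Ccl5 UMIs and 8.72% of the Ccl4 UMIs. Ccl5 was at 1321 and 915 CPM in those of PV replicates 1 and 2 and at 8088 and 1220 CPM in those of CV replicates 1 and 2.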
